A study of Mus musculus with 12 samples.

Results

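Clec7a, Itgax, Igf1, Lilrb4a and Cst7 are marker genes of disease-associated microglia, a state of the brain's resident macrophages described around plaques, damaged myelin and in ageing tissue. They were chosen by name, with earlier results of these data known. These 5 of the 770 genes of the NanoString nCounter Neuroinflammation panel were followed across all samples. RNA came from microglia of C57B6 mice, wild type in the study's text, whose Cx3cr1 promoter drove a yellow fluorescent reporter. The study's legends define wild type as Ulk1wt/wt mice with CX3CR1CreERT2, a Cre recombinase induced by tamoxifen, which its methods describe as hemizygous. The labels call the mice untreated, while the study's legend places adult mice shortly and aged mice long after tamoxifen, so age and time since tamoxifen cannot be told apart. Cells were enriched for CD11b, fixed, permeabilized, stained for ERK1/2 phosphorylated at its activating sites, and sorted as reporter-positive, CD45-intermediate, Ly6G-negative cells. Each sample pooled the CNS of a male and a female mouse. The groups were adult (12 to 20 weeks of age, not separated by P-ERK1/2; samples 1, 4 and 10), aged P-ERK1/2 Low (over 80 weeks; samples 3, 6, 9 and 12) and aged P-ERK1/2 High (over 80 weeks; samples 2, 5, 7 and 8). Adult sample 11, titled as excluded for poor quality, entered only an alternative fit. Adult cells were not sorted on P-ERK1/2, so comparisons with adult mix age and sort.

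Microglia that meet damaged tissue are known to lower their homeostatic genes and to raise receptors, lysosomal genes and growth factors, partly through the receptor Trem2 and its adaptor Tyrobp. Clec7a encodes Dectin-1, an activating receptor for fungal glucans that signals through the kinase Syk. Itgax encodes CD11c, which pairs with the integrin beta-2 chain. Lilrb4a encodes an inhibitory receptor that recruits phosphatases. Igf1 is a secreted growth factor that supports neurons and myelin-forming cells. Cst7 encodes cystatin F, an inhibitor of lysosomal cysteine proteases that cytotoxic lymphocytes also make. ERK1/2 signalling is known to induce transcription factors of the AP-1 family, and PU.1 is a master factor of macrophages.

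For orientation on those factors, the 250 bases before the transcription start are shown for the 3 members whose promoter entry held a match (RefSeq, GRCm38.p6), 5′ to 3′ on the gene's strand, with matches in capitals. Both strands were searched for TGANTCA (the AP-1 motif with any base allowed at its centre, found in 6.75% of 32851 such promoter windows). They were also searched for GAGGAA or its reverse TTCCTC (the core of the PU.1 motif, in 23.3%). No matches of the 2 motifs overlapped in these windows. Clec7a lies at chr6:129472780-129473029 on the minus strand with a PU.1 core, Itgax at chr7:128129300-128129549 on the plus strand with an AP-1 motif, and Igf1 at chr10:87860861-87861110 on the plus strand with both.
Clec7a: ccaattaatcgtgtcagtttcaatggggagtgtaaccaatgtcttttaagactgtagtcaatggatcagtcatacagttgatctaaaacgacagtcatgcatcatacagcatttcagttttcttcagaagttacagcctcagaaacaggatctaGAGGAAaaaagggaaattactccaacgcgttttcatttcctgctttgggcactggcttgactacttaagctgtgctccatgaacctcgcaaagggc
Itgax: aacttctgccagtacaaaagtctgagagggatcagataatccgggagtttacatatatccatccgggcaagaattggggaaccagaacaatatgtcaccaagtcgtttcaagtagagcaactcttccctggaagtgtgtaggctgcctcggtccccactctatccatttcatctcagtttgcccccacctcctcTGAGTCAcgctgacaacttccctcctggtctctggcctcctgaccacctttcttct
Igf1: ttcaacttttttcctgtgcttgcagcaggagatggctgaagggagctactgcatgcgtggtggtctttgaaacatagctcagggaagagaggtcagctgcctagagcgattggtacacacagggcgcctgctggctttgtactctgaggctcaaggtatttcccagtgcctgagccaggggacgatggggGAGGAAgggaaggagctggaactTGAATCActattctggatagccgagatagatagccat
The AP-1 letters lie 56 bases before the start of Itgax (TGAGTCA) and 37 before that of Igf1 (TGAATCA). The PU.1 letters lie 96 bases before the start of Clec7a (90 before a second listed start) and 60 before that of Igf1. Cst7 had neither in its window. These 4 of the 5 members matched a promoter entry, and Lilrb4a was not searched. A match describes the letters only, and binding was not measured in these samples.

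The deposited values are normalized signal, a probe count multiplied by a single housekeeping factor per sample, so levels below are in units of that signal and are not comparable between genes, whose probes differ. The panel counts of a sample summed to 137980 to 326575 in adult. For P-ERK1/2 Low the sums ran from 123798 to 157209, and for P-ERK1/2 High from 650965 to 1539936. Every P-ERK1/2 High sample was thus counted more deeply than every other kept sample, and depth and P-ERK1/2 High cannot be told apart. A sample's background was its average over the 8 negative control probes with 2 SD added. Of the 13 housekeeping genes, 7 to 11 exceeded it in P-ERK1/2 Low, 9 to 12 in adult and 12 to 13 in P-ERK1/2 High. After that scaling 8 of the 13 still differed between the aged groups at a limma adjusted p under 0.05, Lars being called lower (log2 fold change -1.23) and Supt7l, above background in 1 of 4 P-ERK1/2 Low samples, called higher, and every fold change below rests on the factor they set. The microglial markers Csf1r and Itgam exceeded background in all kept samples. P2ry12 did so in 2 of 3 adult, 0 of 4 P-ERK1/2 Low and 4 of 4 P-ERK1/2 High samples, and Tmem119 in 3 of 3, 1 of 4 and 4 of 4. Clec7a, Itgax, Igf1 and Lilrb4a were above background in all 11 kept samples, and Cst7 in 2. In these bulk samples fewer cells expressing a gene and less RNA per cell cannot be told apart.

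**Figure D1:**
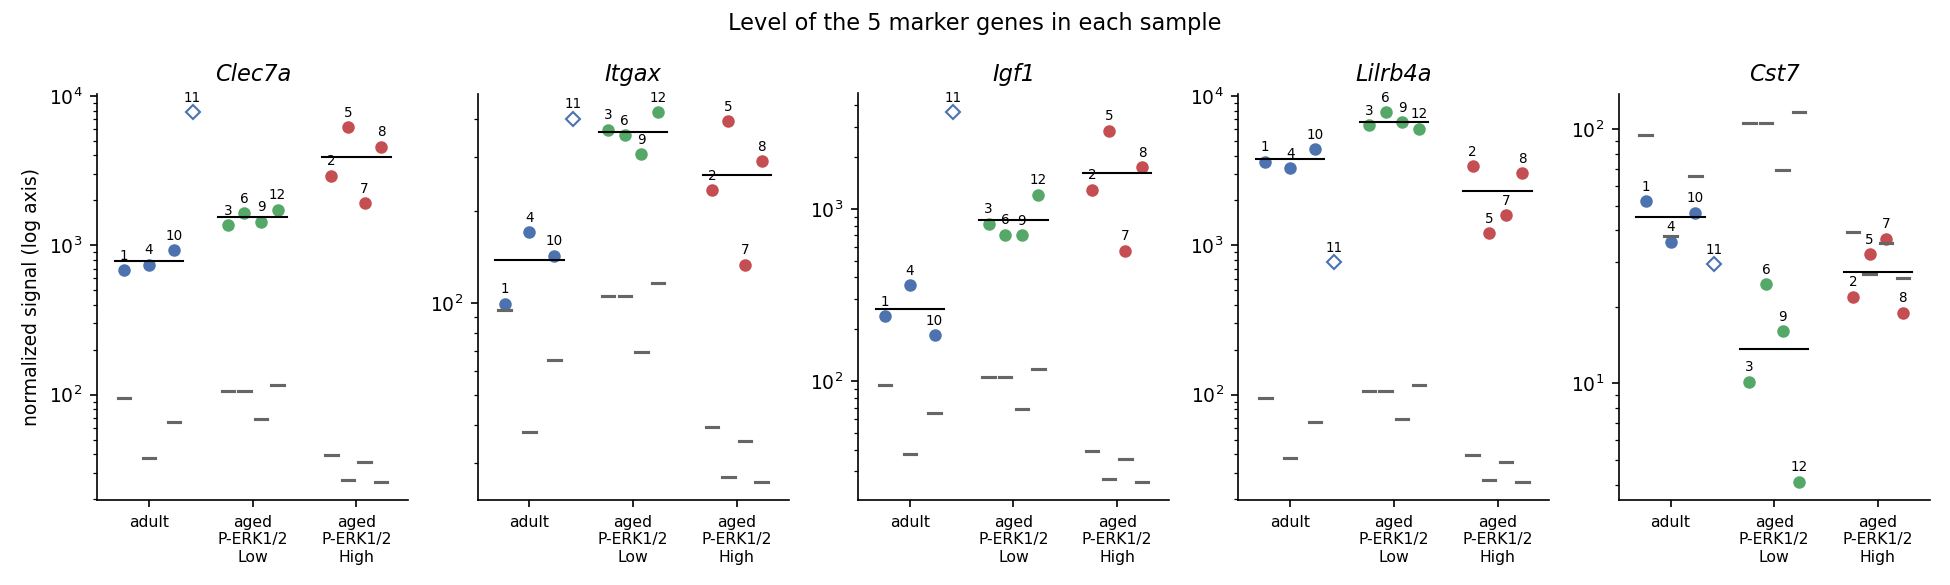
Normalized signal (log axis, units of housekeeping-scaled counts) of the 5 marker genes in each sample, numbered, with the group mean as a black line, the sample's background as a grey dash (not drawn for sample 11) and the excluded adult sample 11 as an open diamond. Clec7a lies higher in each group from left to right, Lilrb4a is highest in P-ERK1/2 Low, and Cst7 lies above the dash in 2 of the 11 kept samples.

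The aged P-ERK1/2 Low microglia held more Clec7a, Itgax, Igf1 and Lilrb4a signal than adult microglia, without overlap between the groups. Itgax was 2.67-fold and Igf1 3.32-fold higher, and both were called, which required a limma p under 0.01 together with a change of more than 1 on the log2 scale. Clec7a (1.98-fold) and Lilrb4a (1.79-fold) passed the p but not the fold limit. In that comparison 8.05% of all genes were called higher, 2.73% lower, and 36.5% did not overlap in either direction. The median log2 fold change was 0.10 over all genes. These values rest on the housekeeping scaling. With counts left unscaled or scaled to the positive controls, neither Itgax nor Igf1 was called, at log2 fold changes of 0.56 to 0.60 and 0.88 to 0.91, and Clec7a was at 0.13 to 0.17. With sample 11 added to the adult group Itgax (1.02) and Igf1 (0.77) were not called either. Clec7a then overlapped, its signal of 7823 in sample 11 lying above every P-ERK1/2 Low sample.

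Itgax, the integrin, had a signal of 99.8, 171 and 143 in adult samples 1, 4 and 10. It was 369, 354, 308 and 423 in P-ERK1/2 Low samples 3, 6, 9 and 12. The lowest P-ERK1/2 Low sample was above the highest adult sample, and adult sample 1 lay just over its background of 95.1. The log2 fold change was 1.41 (SE 0.21, limma adjusted p = 0.0029, n = 4 and 3), and it was not called with unequal variances per gene. The group means were 363 ± 47.4 and 138 ± 36.0 (SD).

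Igf1, the growth factor, had a signal of 238, 359.8 and 185 in the adult samples. In P-ERK1/2 Low it was 820.0, 708, 701 and 1210.2. Sample 12 stood highest, and all 4 exceeded every adult sample. The log2 fold change was 1.73 (SE 0.28, limma adjusted p = 0.0040), from a mean of 261 ± 89.5 to 859.8 ± 239.8 (SD, n = 3 and 4). By size of increase Igf1 was number 13 of the 770 genes.

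Clec7a, the activating receptor, measured 681, 741 and 929 in the adult samples. The P-ERK1/2 Low samples gave 1365, 1641, 1445 and 1735, all above adult. Its log2 fold change of 0.99 (SE 0.17, limma adjusted p = 0.0047) fell just short of the fold limit, and without sample 3 (1.04), 9 (1.02) or 10 (1.12) it was called. The means were 783 ± 129.6 and 1547 ± 171 (SD, n = 3 and 4).

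Lilrb4a, the inhibitory receptor, measured 3642, 3300.2 and 4413 in the adult samples. For P-ERK1/2 Low they were 6369.9, 7832, 6683 and 6071. All 4 were higher than every adult sample, with a log2 fold change of 0.84 (SE 0.16, limma adjusted p = 0.0085). Its counts before scaling overlapped, at 1605 to 2834 in adult and 1480 to 2498 in P-ERK1/2 Low, and the log2 fold change of the unscaled counts was -0.02. Lilrb4a has a near relative next to it in the RefSeq gene table, Lilr4b, and with the probe sequence not used here, signal shared between them cannot be told apart.

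Between the aged populations the members parted. Under the deposited scaling, P-ERK1/2 High microglia held 2.31-fold more Clec7a and 3.17-fold less Lilrb4a than P-ERK1/2 Low microglia, with no overlap in either gene, and both were called, while on unscaled counts the Lilrb4a difference was near 0. Itgax and Igf1 overlapped and were not called, at log2 fold changes of -0.56 (95% confidence interval -1.23 to 0.12) and 0.72 (-0.19 to 1.63). Of all genes, 28.2% were called higher, 9.61% lower, and 49.4% did not overlap, so a gene without overlap was common here. The median over all genes was 0.26.

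Clec7a had a signal of 2919, 6209, 1912 and 4592 in P-ERK1/2 High samples 2, 5, 7 and 8. Each was above the highest P-ERK1/2 Low sample, though sample 7 by little. The log2 fold change was 1.21 (SE 0.33, limma adjusted p = 0.0091), with a mean of 3908 ± 1891 (SD, n = 4). The call was lost without sample 3 (1.15), 5 (0.94) or 8 (1.08), and under median-of-ratios (0.94), quantile (0.63) and total-count scaling (0.18), while the direction held in all of these. With unequal variances per gene neither Clec7a nor Lilrb4a was called.

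Lilrb4a had a signal of 3407, 1208, 1598 and 3052 in the same samples. The highest of them lay under the lowest P-ERK1/2 Low sample. The log2 fold change was -1.66 (SE 0.33, limma adjusted p = 0.0013), number 7 by size of decrease, from 6739 ± 770.2 to 2316 ± 1076 (SD, n = 4 each). Leaving out any single sample kept the call, at -1.89 to -1.39. The direction rested on the scaling: the counts were 2799, 1690, 1423 and 2409 in P-ERK1/2 High against 1880, 2234, 2498 and 1480 in P-ERK1/2 Low. The log2 fold change of these counts was 0.02 unscaled and 0.33 scaled to the positive controls. It was -1.93, -2.45 and -2.69 under median-of-ratios, quantile and total-count scaling, each called.

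Itgax had a signal of 235, 394, 134 and 291 in P-ERK1/2 High. Sample 5 fell within the P-ERK1/2 Low range, the other 3 under it, and sample 7 within the adult range. The mean was 263 ± 108.7 (SD, n = 4). Its direction turned with the scaling, to 1.11 on unscaled counts and 1.42 after positive-control scaling, the latter called higher, and it was called lower under quantile (-1.08) and total-count scaling (-1.58).

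Igf1 had a signal of 1292, 2839, 572 and 1739.6 in P-ERK1/2 High. Sample 7 lay under every P-ERK1/2 Low sample while samples 2, 5 and 8 lay over them. Without sample 7 the log2 fold change was 1.15 and was called (limma adjusted p = 0.0088), as it was on unscaled counts (2.40) and after positive-control scaling (2.71). The mean was 1610.4 ± 949.9 (SD, n = 4). Within P-ERK1/2 High, sample 7 was lowest and sample 5 highest for Clec7a, Itgax and Igf1 alike, whereas sample 5 was lowest for Lilrb4a.

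**Figure D2:**
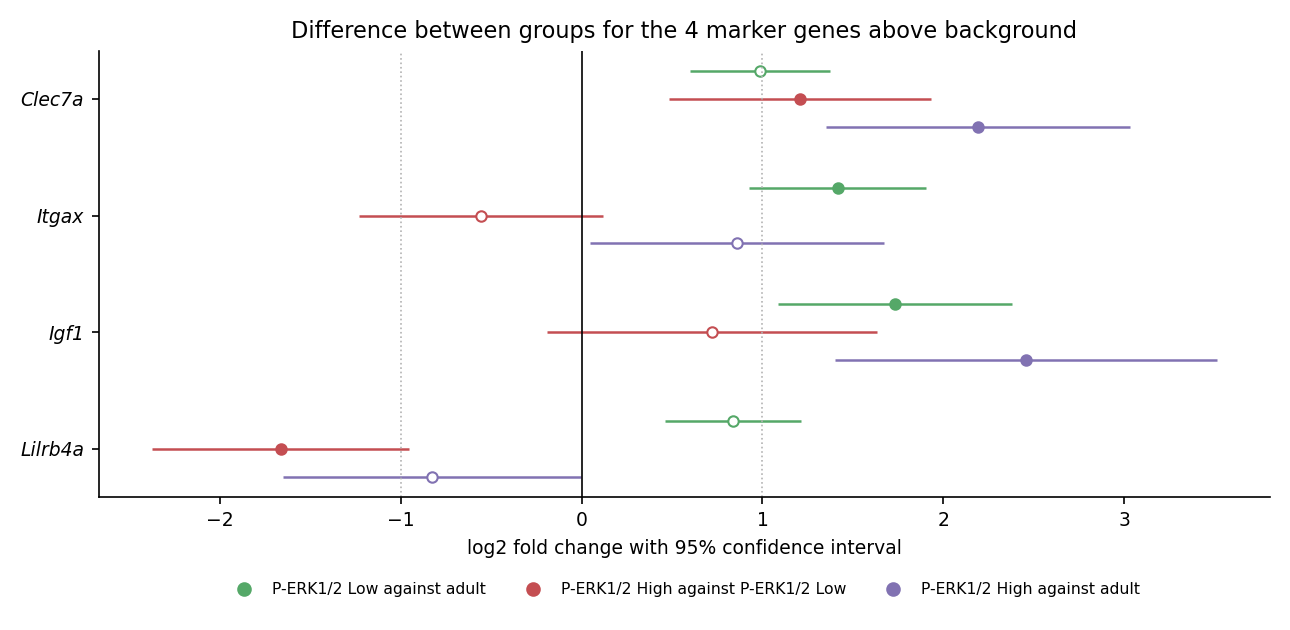
Log2 fold change (horizontal axis) with its 95% confidence interval in the 3 comparisons for the 4 marker genes above background in all kept samples, with filled points for called genes and dotted lines at the fold limit. Clec7a lies right of 0 in all 3 comparisons, and Lilrb4a lies at 0.84 in P-ERK1/2 Low against adult and at -1.66 between the aged groups under the deposited scaling.

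**Figure D3:**
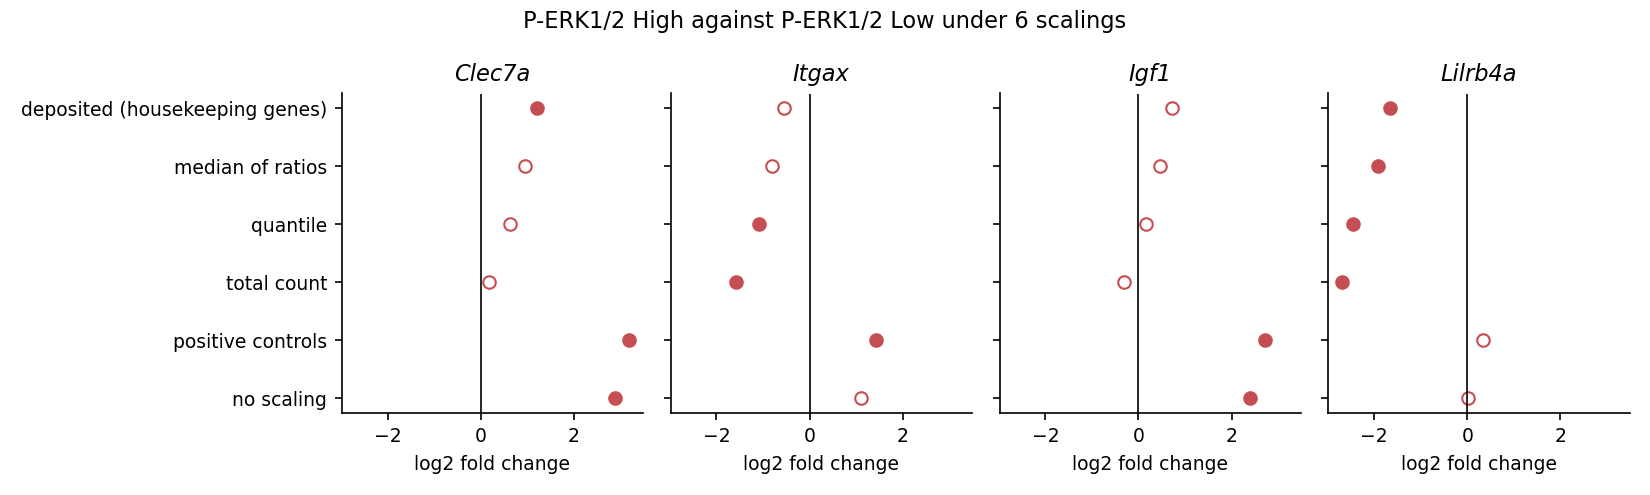
Log2 fold change between the aged groups, High over Low (horizontal axis) under 6 scalings between samples (rows), with filled points for calls. Clec7a stays right of 0 from 0.18 to 3.19, and Lilrb4a is left of 0 in 4 scalings and at 0.02 and 0.33 in the others.

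P-ERK1/2 High microglia also stood above adult for Clec7a and Igf1. Clec7a was 4.57-fold higher (log2 fold change 2.19, SE 0.38, limma adjusted p = 9.8e-04) and Igf1 5.48-fold (2.45, SE 0.48, limma adjusted p = 0.0020), neither with overlap. Itgax (0.86, limma adjusted p = 0.076) and Lilrb4a (-0.83, limma adjusted p = 0.089) overlapped and were not called. Of all genes, 29.2% were called higher, 7.66% lower, 50.3% did not overlap, and the median was 0.35. Itgax was called higher without sample 7 (1.15), on unscaled counts (1.67) and after positive-control scaling (2.02). Lilrb4a was called lower under quantile (-1.82) and total-count scaling (-2.24). Under total-count scaling neither Clec7a (0.78) nor Igf1 (1.04) was called. With adult sample 11 added to the adult group, Clec7a (1.36) and Igf1 (1.49) were no longer called either. This comparison shares its samples with the other 2, so the 3 sets of values are not independent.

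A ratio of genes within a sample is free of the scaling factor. The signal of Lilrb4a divided by that of Clec7a was 5.35, 4.46 and 4.75 in adult and 4.67, 4.77, 4.63 and 3.50 in P-ERK1/2 Low. The values were 1.17, 0.195, 0.836 and 0.665 in P-ERK1/2 High samples 2, 5, 7 and 8. Adult and P-ERK1/2 Low thus overlapped and every P-ERK1/2 High sample was far below both. Relative to Clec7a, Lilrb4a was 7.31-fold lower in P-ERK1/2 High than in P-ERK1/2 Low (log2 difference -2.87, SE 0.49, limma adjusted p = 0.0015) and 8.11-fold lower than in adult (-3.02, SE 0.55, limma adjusted p = 2.9e-04). Both were called. Sample 5 pulled furthest, and without it the differences were -2.33 and -2.48, still called. With unequal variances per gene neither was called, and with sample 11 added the difference from adult was -1.61 and not called. Between P-ERK1/2 Low and adult the log2 difference was -0.15 (95% confidence interval -0.56 to 0.26).

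Between the aged groups Itgax was also lower in P-ERK1/2 High relative to Clec7a, with less spread within each aged group than Lilrb4a. Its ratio was 0.270, 0.216, 0.213 and 0.243 in P-ERK1/2 Low and 0.0805, 0.0634, 0.0699 and 0.0635 in P-ERK1/2 High, 3.39-fold lower (log2 difference -1.76, SE 0.28, limma adjusted p = 0.0013). In adult it was 0.147, 0.231 and 0.154. Against adult the log2 difference of P-ERK1/2 High was -1.33 (SE 0.41, limma adjusted p = 0.0093), called but nearer 0 than the median of the other genes given below. That call was lost under 8 of 16 alternatives, which were leaving out sample 1, 2, 4, 8 or 10, unequal variances per gene, subtraction of the negative controls (-1.18) and the addition of sample 11 (-0.89). Igf1 moved with Clec7a within its spread between the aged groups (-0.48, 95% confidence interval -1.15 to 0.18). Many genes were called lower relative to Clec7a, 41.5% of the 769 others between the aged groups, 62.8% in P-ERK1/2 High against adult and 37.5% in P-ERK1/2 Low against adult. The medians over the other genes were -0.95, -1.84 and -0.89, against the -2.87, -3.02 and -0.15 of Lilrb4a.

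**Figure D4:**
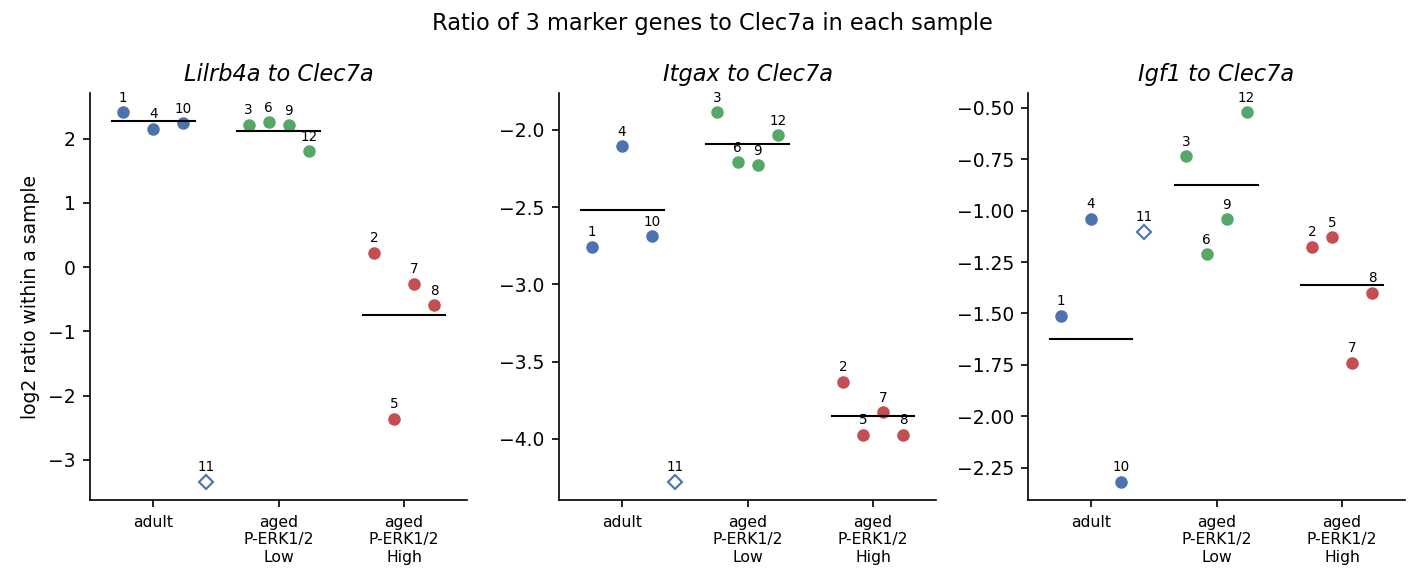
Log2 ratio of Lilrb4a, Itgax and Igf1 to Clec7a within each numbered sample (vertical axis), with group means as lines and the excluded adult sample 11 as an open diamond. For Lilrb4a the adult and P-ERK1/2 Low samples lie at 1.81 to 2.42 and the P-ERK1/2 High samples at -2.36 to 0.22.

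Cst7, the protease inhibitor, was near background. Its signal was 52.2, 36.1 and 46.9 in adult, from counts of 23, 31 and 19. It was 10.2, 24.5, 16.05 and 4.10 in P-ERK1/2 Low, from counts of 3, 7, 6 and 1, and 21.9, 32.2, 37.1 and 19.0 in P-ERK1/2 High, from counts of 18, 45, 33 and 15. No adult and no P-ERK1/2 Low sample exceeded its background, so no fold or direction is read from it, and the call of a decrease in P-ERK1/2 Low against adult (limma adjusted p = 0.028) compares values under background. P-ERK1/2 High samples 5 and 7 exceeded background, by little, at counts of 45 and 33 against 37.7 and 31.7. These samples also had the highest summed signal of 11 T and NK cell markers, at 1163 and 869, with 8 of the 11 above background in each. The sums were 344 and 418 in samples 2 and 8, with 2 and 6 of the 11 above background, 209 to 281 in P-ERK1/2 Low with none of the 11 above background, and 172 to 351 in adult with at most 1. Cd3e, part of the T cell receptor complex, carried much of the P-ERK1/2 High sums, with a mean of 357 and a highest value of 801. The next largest mean there was 53.8, of Cd3d. Cd3e exceeded background in 4 of 4 P-ERK1/2 High samples, while Cd8a, Gzma and Klrb1 did in none. Over the whole panel more genes were also above background in P-ERK1/2 High, as given above. The part of such cells in any member's level was not tested.

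The sums of monocyte and border macrophage, endothelial and astrocyte markers were higher in every P-ERK1/2 High sample than in any other kept sample. The summed signal of 7 monocyte and border macrophage markers was 225 to 356 in adult, and 214 to 301 and 370.04 to 592 in aged P-ERK1/2 Low and High. In the same order of groups, that of 4 neutrophil markers was 627 to 973, 295 to 444 and 146 to 515. The aged groups overlapped there, and no neutrophil gene was called between them (limma; none had an adjusted p under 0.05). Endothelial markers (4 genes) summed to 222 to 304, 168 to 234 and 452 to 841. At most 2 of the monocyte and 2 of the endothelial markers were above background in any adult or P-ERK1/2 Low sample, and 3 to 4 of each in P-ERK1/2 High. Over the whole panel 410 to 560 genes were above background in adult and P-ERK1/2 Low samples, and 589 to 673 in P-ERK1/2 High. Astrocyte markers (3 genes) summed to 264 to 420.4, 417 to 505 and 648 to 1221. Gja1, a gap junction gene, carried that sum, with means of 260.0, 343 and 877, and was the only one of the 3 called, while Slc1a3 had a mean of 59.98 in P-ERK1/2 Low, under background, and 30.7 in P-ERK1/2 High. B cell (3 genes), neuronal (4) and oligodendrocyte (4) sums reached at most 303, 359 and 143 in any kept sample. Blk and Rbfox3, of the B cell and neuronal lists, were called higher between the aged groups and were above background in 4 of 4 P-ERK1/2 High and no P-ERK1/2 Low samples, while the calls of neuronal Nefl and Tubb3 as lower compare values mostly under background. In P-ERK1/2 High, sample 7, the lowest for Clec7a, Itgax and Igf1, had the highest sums of neutrophil (515, against 146 to 213 in the other 3), monocyte and border macrophage (592), endothelial (841), neuronal (359) and B cell (303) markers, and the lowest astrocyte sum. Their part in the members' levels was not tested.

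Other disease-associated microglia genes of the panel, a list of 12 written with earlier results of these data known, also differed in direction. Between the aged groups, 6 were called higher, 3 lower and 3 were not called, beside 28.2% and 9.61% of all genes, with a median log2 fold change of 0.96 against 0.26. Over the 6 scalings 3 to 9 were called higher and 0 to 4 lower. Those higher were the receptor kinase Axl (2.45), the growth factor Csf1 (2.53), the cholesterol hydroxylase Ch25h, the matrix cytokine Spp1 (1.97), the lipid chaperone Fabp5 (1.31) and the chemokine Ccl2 (1.59). Ch25h had a signal of 212 ± 38.7 in P-ERK1/2 High (SD, n = 4) and was not above background in any P-ERK1/2 Low or adult sample, so no fold is given for it. Ccl2 kept its call only without sample 7 when single samples were left out, and lost it under median-of-ratios, quantile and total-count scaling (1.32, 1.12 and 0.56). Spp1 lost it under total-count (0.94) and quantile scaling, where its direction turned (-0.096), and Fabp5 under the same pair (0.29 and 0.83). Those lower were the lipoprotein Apoe (-1.34), the chemokine Ccl4 (-1.23) and the adaptor Tyrobp (-1.05), the last not called without sample 7 or 12. The receptor Trem2 was not called (-0.52), and it was called lower under total-count scaling (-1.54) and higher on unscaled counts (1.16) and after positive-control scaling (1.47). Axl and Csf1 were called higher under all 6 scalings, while Apoe, Ccl4 and Tyrobp stood at 0.65, 0.75 and 0.94 after positive-control scaling.

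P-ERK1/2 Low against adult gave 3 of the 12 called higher, none lower and 9 not called, beside 8.05% and 2.73% of all genes. The median was 0.64 against 0.10 over all genes. Those higher were the macrophage elastase Mmp12 (3.06), Ccl2 (1.97) and Ccl4 (1.17), of which Mmp12 and Ccl2 were called under all 6 scalings. On unscaled counts and after positive-control scaling those 2 were the only ones called higher, and 3 were called lower, among them Apoe (-1.33 and -1.29) and Spp1 (-1.06 and -1.03). Trem2 (0.65) and Tyrobp (0.75) were not called. P-ERK1/2 High against adult gave 8 called higher, from Ccl3 at 1.15 to Mmp12 at 3.67, and Apoe lower (-1.82). Of all genes, 29.2% were called higher and 7.66% lower in that comparison, and the list's median was 1.90 against 0.35. Over the 6 scalings 4 to 8 were called higher there and 0 to 4 lower, and Ccl3 lost its call without sample 1, 4, 5 or 8. Spp1 (1.76) turned there too, to -0.97 under quantile scaling. Axl, Ccl2, Csf1 and Mmp12 were called there under all 6 scalings.

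**Figure D5:**
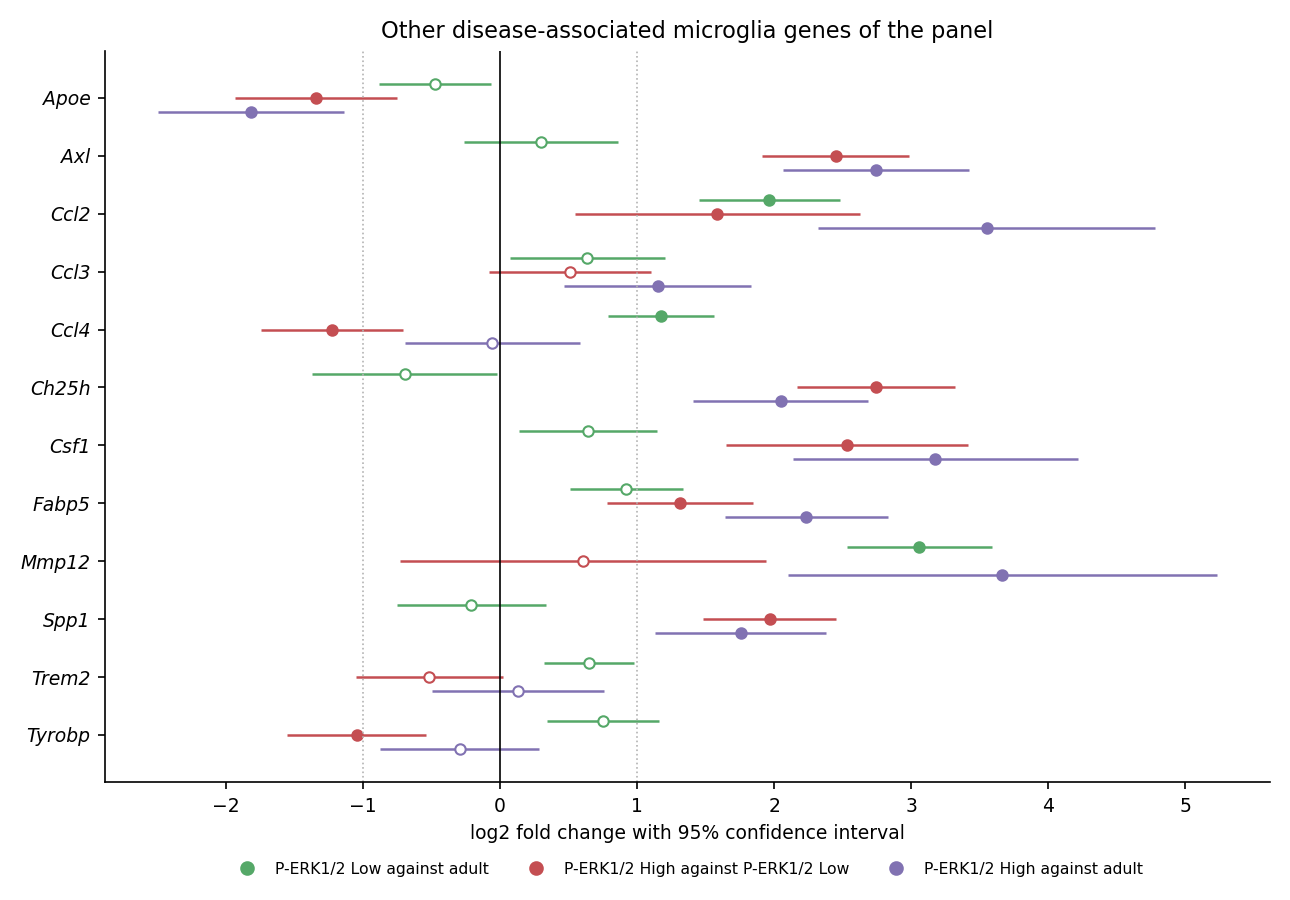
Log2 fold change (horizontal axis) with its 95% confidence interval in the 3 comparisons for 12 other disease-associated microglia genes, with filled points for calls. Ch25h is plotted against groups under background. Under the deposited scaling Axl and Csf1 separate P-ERK1/2 High from both other groups, Mmp12 separates both aged groups from adult, and Apoe lies left of 0 throughout.

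Signalling partners of the members, 7 genes, were also followed. None was called in P-ERK1/2 Low against adult, with a median of 0.11 (limma; at an unadjusted p under 0.05 with no fold limit only Ptpn6, a phosphatase that inhibitory receptors recruit, passed, at 0.69), but on unscaled counts Inpp5d (-1.02) and Plcg2 (-1.19) were called lower, and after positive-control scaling Plcg2 (-1.16). Between the aged groups 3 were called higher and none lower, with a median of 0.75 against 0.26, where 28.2% of all genes were called higher. Over the 6 scalings 1 to 7 were called higher and 0 to 1 lower. Igf1r, the receptor of Igf1, rose by 2.43 on the log2 scale from a mean of 263 ± 53.0 in the Low samples up to 1405 ± 103.7 in the High samples (SD, n = 4 each), and was called under all 6 scalings. Bcl10, an adaptor downstream of Dectin-1, rose by 1.97, and Itgam, the CD11b chain that the enrichment used, by 1.21. Bcl10 was not called under total-count scaling (0.94), nor Itgam under median-of-ratios, quantile and total-count scaling (0.94, 0.61 and 0.18). Syk, the kinase that Dectin-1 uses, was not called at -0.80, and it was called lower under 3 of the scalings and higher under 1. Against adult, the same 3 genes were higher in P-ERK1/2 High, at 2.29, 2.28 and 1.33. Calls of an increase made up 29.2% of the panel in that comparison. The partners' median was 0.73, against 0.35 over all genes. None of the 3 was called there under total-count scaling, Itgam standing at -0.08, and Itgam was not called under median-of-ratios and quantile scaling either.

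Profiles across the 11 kept samples were compared by the mean absolute difference of centred log2 values, a description in which all genes share the samples' scaling and depth. Nearest to Clec7a were Nlrp3 (0.15), Casp1 (0.15) and Mpeg1 (0.16), where the median gene differed by 0.82. Igf1 was number 48 (0.35) and Lilrb4a number 752 of 769 (1.36). Nearest to Igf1 were Msr1 (0.22), Fcgr3 (0.25) and Mgmt (0.27), with Clec7a number 11. Nearest to Itgax were Ldha (0.16), Pcna (0.17) and Dnmt1 (0.22). Nearest to Lilrb4a were Prdx1 (0.13), Was (0.13) and Prkaca (0.19). Cst7, with its low counts, had no gene nearer than Atg14 (0.39), Ctsw (0.39) and C3 (0.39).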

How the data were processed

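Sorted microglia were counted on the nCounter Neuroinflammation panel (770 genes, 8 negative and 6 positive controls) in 12 samples. The authors normalized the counts in nSolver (version not given in the sources used) and deposited signal values, each a count times a single factor per sample that equalizes the geometric mean of 13 housekeeping genes. Background was not subtracted, and the control probes are stored unscaled. All columns mapped to a sample by number. Of the gene names 763 matched a RefSeq symbol and 7 a synonym. Dividing by the factor gave whole numbers for 99.8% of values within 0.1, which served as counts for depth and scaling alternatives.

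Log2(signal + 1), where 1 is the pseudocount, was fitted with limma 3.58.1 (R 4.3.3) in each of 3 comparisons over all genes without a filter, so fold changes of low genes are understated. A call needed a p under 0.01 together with a change of more than 1 on the log2 scale, as in the study, with Benjamini-Hochberg adjusted p over all genes beside it. Ratios to Clec7a were fitted in the same way over the other 769 genes. The fits were tested on simulated data. Named genes are the members, the fixed lists of other disease-associated, homeostatic and partner genes, cell type markers, and the 3 nearest profiles to each member. Members and lists were chosen with earlier results of these data known. Sample 11 was left out of the main fits. Pooled pairs of animals are the replicates, and whether the aged groups share animals is not known from the labels. Alternatives changed the pseudocount, filter, scaling, low counts, test, threshold and samples. Positive-control scaling, subtraction of the negative controls and the background limit were chosen after seeing the data.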

Additional observations from a re-analysis of the deposited data

Results flagged for a closer look

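Adult sample 11, which entered only an alternative fit, had levels above every kept adult sample for 3 members. Its Clec7a signal was 7823, above every P-ERK1/2 High sample as well. Its Itgax signal was 402, and its Igf1 signal was 3643. Its Lilrb4a signal of 769 was below that of every kept sample, and its Lilrb4a to Clec7a ratio was 0.0983, below the P-ERK1/2 High range of 0.195 to 1.17. It was counted to 1464449, in the depth range of P-ERK1/2 High, and its positive controls had a geometric mean of 286 where the other samples had 954 to 1459.7. Among the members' levels within the groups of 4, no sample stood apart from its group by Dixon's test.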

How the results depend on the processing

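No paired analysis was possible because each sample number occurs once. The planned edgeR and DESeq2 fits were not run, since the deposited table holds normalized signal and the counts recovered by division were not taken as their input.

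With other scalings the median of all genes between the aged groups, High over Low, moved from 0.26 to -0.01 (median of ratios), -0.11 (quantile), -0.75 (total count), 1.86 (no scaling) and 2.15 (positive controls). The share of calls that were higher moved from 74.6% to 59.7%, 51.5%, 15.9%, 99.8% and 100% in that order, and to 45.5% with counts under 20 raised to 20. In P-ERK1/2 Low against adult it moved from 74.7% to 61.3%, 59.5%, 28.9%, 3.33% and 3.51%, and to 43.9% after negative-control subtraction and 61.8% with sample 11. In P-ERK1/2 High against adult it moved from 79.2% to 57.3%, 50.7%, 9.95%, 99.4% and 99.8%, to 91.9% with unequal variances and to 100% with sample 11.

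Genes called between the aged groups numbered 291, and 596 without scaling, 659 with positive-control scaling and 189 with unequal variances. Against adult, P-ERK1/2 High had 284, and 173 with unequal variances and 49 with sample 11. In P-ERK1/2 Low against adult they numbered 83, and 240 without scaling, 228 with positive-control scaling, 132 after negative-control subtraction, 54 with unequal variances and 34 with sample 11. The members called between the aged groups were 2, and 1 under median of ratios, 0 with unequal variances, 4 under positive-control scaling and 1 to 3 with single samples left out. In P-ERK1/2 Low against adult the count was 3, Cst7 included, and 1 without scaling, under positive-control scaling, with unequal variances or with sample 11. Leaving out single samples gave 2 to 4 there. For P-ERK1/2 High against adult it was 2, and 0 with sample 11. Relative to Clec7a, unequal variances left 1 member called in P-ERK1/2 High against either group. Sample 11 left 0 in both comparisons with adult, and in P-ERK1/2 Low against adult the filter at 50 and the floor at 20 left 0, with 1 to 2 under single samples left out.

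Directions turned as follows on the log2 scale. Between the aged groups, Lilrb4a was 0.016 unscaled and 0.33 under positive-control scaling, Itgax 1.11 and 1.42 and Igf1 -0.31 under total count. With P-ERK1/2 High against adult, Lilrb4a was 0.35 under positive-control scaling, and Itgax -0.55 under total count. In P-ERK1/2 Low against adult, Lilrb4a was -0.018 unscaled. Relative to Clec7a, Lilrb4a in P-ERK1/2 Low against adult was 1.25 with sample 11, and Igf1 in P-ERK1/2 High against adult -0.086 to 0.55 with single samples left out. The fitted Cst7 values changed sign as well, but its counts were not above background in any adult or P-ERK1/2 Low sample, so they give neither a fold nor a direction, and the floor at 20 sets the sign by the larger factors of P-ERK1/2 Low. They were -1.18 between the aged groups and 0.57 in P-ERK1/2 Low against adult with that floor, and 0.079 unscaled and 0.41 under positive-control scaling in P-ERK1/2 High against adult. Relative to Clec7a between the aged groups they were 0.013 at a pseudocount of 0.1, 0.22 after subtraction and -0.56 to 0.24 with single samples left out. The causes were not tested.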

Other observations

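Homeostatic microglia genes, a list of 12, are known to mark microglia at rest. In P-ERK1/2 Low against adult, 4 were called lower (2.73% of all genes were) and none higher, with a median log2 fold change of -0.70 against 0.10 over all genes. They were the Fc receptor-like gene Fcrls (-2.31), Olfml3 (-1.56), the transporter Slco2b1, not above background in any P-ERK1/2 Low sample and so given no fold, and Tmem119, given none either since 1 of 4 P-ERK1/2 Low samples was above background. Fcrls fell from 672 ± 156 (SD, n = 3) to 137 ± 37.0 (SD, n = 4). All 4 were called lower under each of the 6 scalings, and Tmem119 lost its call without sample 3 or 4.

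Between the aged groups, High over Low, 4 of the 12 were called higher and none lower, near the 28.2% of all genes called higher, with a median of 0.20 against 0.26. They were Tmem119, the purinergic receptor P2ry12, the transcription factor Sall1 and the receptor Gpr34, with means of 309, 176, 311 and 132 in P-ERK1/2 High. P2ry12 and Gpr34 were above background in none of the 4 P-ERK1/2 Low samples and Tmem119 and Sall1 in 1, so no fold is given. Gpr34 was not called without sample 5, 7, 9 or 12, nor under median-of-ratios, quantile and total-count scaling. Under total-count scaling none of the 12 was called higher and 3 were called lower, and after positive-control scaling all 12 were called higher. Csf1r was called lower under median-of-ratios, quantile and total-count scaling and higher after positive-control scaling (1.15). Against adult, P-ERK1/2 High had P2ry12 higher (1.00) and Fcrls, Olfml3 and Slco2b1 lower, the first 2 at -1.57 and -1.65. Slco2b1 was above background in 1 of 4 P-ERK1/2 High samples. Of all genes 29.2% were called higher there and 7.66% lower, and the list's median was 0.30 against 0.35. The P2ry12 call held without sample 8 only and was lost without any other single sample, and it stood at -0.40 under total-count scaling. Fcrls was not called without sample 1, 2, 4, 5 or 8, and none of these 3 lower genes was called on unscaled counts or after positive-control scaling.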
